A study of Mus musculus with 4 samples.

Results

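The miR-379 to miR-410 cluster was examined in small RNA libraries made after RNA immunoprecipitation of Argonaute2 (AGO2) from mouse olfactory bulb. The cluster was taken as every mature miRNA name listed on chromosome 12 (mm10) between miR-379-5p, which starts at 109709065, and the neighbourhood of miR-410-3p, which ends at 109743784. This gave 77 of the 1900 names in the table, from 39 hairpins: 75 names from miR-379 to miR-410 and the 2 arms of miR-3072, which lies just beyond and ends at 109747949. Both arms of a hairpin were kept, and 38 names were 5p arms, 38 were 3p arms and miR-453 carried no arm. The label of the cluster refers to Mirg, a long noncoding host gene, but the annotated Mirg gene (109729764 to 109749460) covered only 27 of the names. The other 50 lay upstream, in no annotated gene on their strand, where genes of the miRNA, snoRNA and miscellaneous RNA types were not counted.

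All libraries came from C57BL/6 mice. The GFP-AGO2 group (n = 2, replicates 1 and 3) had received the viral vector LV.PGK.GFP-AGO2, named for a PGK promoter and AGO2 joined to green fluorescent protein. The Control group (n = 2, also numbered 1 and 3) was sham-injected and so carried no vector, and the bulbs of both groups were taken 8 weeks after injection. The series describes the assay as directed at newborn neurons, but PGK is a broadly active promoter and the RNA was from whole bulb tissue. The sources used here do not give the antibody, nor whether replicates were separate mice. The Control libraries may thus hold RNA of the mouse's own AGO2 or background of the procedure, and p-values reflect the spread between 4 libraries, which could be technical. Since the tissue is bulk, fewer cells of a type and less RNA per cell cannot be told apart.

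The cluster lies in the imprinted Dlk1-Dio3 domain, where the noncoding RNAs and miRNAs are expressed from the maternal chromosome and are abundant in brain. In neurons its primary transcript is induced by activity through the transcription factor Mef2, and several of its miRNAs, miR-134 the best known, shape dendrites and spines. Each hairpin can give a 5p and a 3p mature strand, of which AGO2 usually keeps one, and the bases 2 to 8 of that strand, the seed, choose its targets.

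The sequences of the 3p arms with the strongest or most abundant rises show how different their seeds are. They are given 5′ to 3′ from RefSeq (GRCm38.p6), with the seed in capitals.
miR-410-3p: aAUAUAACacagauggccugu
miR-323-3p: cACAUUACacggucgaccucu
miR-495-3p: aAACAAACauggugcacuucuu
miR-543-3p: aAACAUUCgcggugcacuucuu
miR-485-3p: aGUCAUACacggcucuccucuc
miR-329-3p: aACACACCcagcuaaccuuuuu
miR-376b-3p: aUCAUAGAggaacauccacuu
miR-382-3p: uCAUUCACggacaacacuuuuu
The next 4 are pairs of like sequence within the cluster, of which only the first pair shares a seed.
miR-379-3p: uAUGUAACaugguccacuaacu
miR-411-3p: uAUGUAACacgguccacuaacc
miR-300-3p: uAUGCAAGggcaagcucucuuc
miR-381-3p: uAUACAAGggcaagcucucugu
The last 4 are 5p arms, a rise from few Control counts and the 3 falls.
miR-380-5p: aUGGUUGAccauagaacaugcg
miR-541-5p: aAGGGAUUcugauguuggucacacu
miR-379-5p: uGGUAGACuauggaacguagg
miR-323-5p: aGGUGGUCcguggcgcguucgc

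Of the 77 names, 43 had enough counts to be tested and 34 did not. Among the 34, 13 had no count in any library and 21 had some, the largest being 31. Of the 13, 4 are the arms of miR-299a and miR-299b, which overlap each other on opposite strands, so their zeros are not read as absence. Of the 21, 5 were at 0 in both Control libraries and had counts in GFP-AGO2, the highest being miR-543-5p, at 7 and 4 counts. No member has more than 1 position in the table. The libraries held 1006861 and 673916 miRNA counts in Control and 2809758 and 1858354 in GFP-AGO2, of which the cluster took 12589, 8134, 74124 and 46277. Between 54 and 57 members were detected in each library.

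The cluster held a larger part of the miRNA counts in the GFP-AGO2 libraries, and the difference lay in the 3p arms. All members together made up 1.25% and 1.21% of the counts in Control and 2.64% and 2.49% in GFP-AGO2, a ratio of means of 2.09. The 3p members made up 0.435% and 0.411% in Control and 1.91% and 1.68% in GFP-AGO2, a ratio of 4.24. The 5p members made up 0.816% and 0.796% in Control and 0.732% and 0.810% in GFP-AGO2. Both GFP-AGO2 libraries were above both Control libraries for the whole cluster and for the 3p members, while the 5p shares overlapped. With the most abundant 5p member left out, the 5p shares were 0.450% and 0.463% in Control and 0.492% and 0.525% in GFP-AGO2, without overlap. The exact two-sided permutation test gave p = 0.33 for the whole cluster and for the 3p members, the smallest value that 2 libraries against 2 allow, and p = 0.667 for the 5p members.

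Within the cluster's own counts, which no scaling between libraries affects, the 3p members held 34.8% and 34.0% in Control and 72.3% and 67.5% in GFP-AGO2. The most abundant member changed too. In Control it was miR-541-5p, with 29.3% and 27.6% of the cluster's counts, against 9.09% and 11.4% in GFP-AGO2. In GFP-AGO2 it was miR-543-3p, with 21.7% and 20.4%, against 9.56% and 9.10% in Control. With miR-541-5p left out, the 3p members still differed, at 49.2% and 47.0% in Control and 79.5% and 76.2% in GFP-AGO2. The groups did not overlap in any of these shares.

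**Figure D1:**
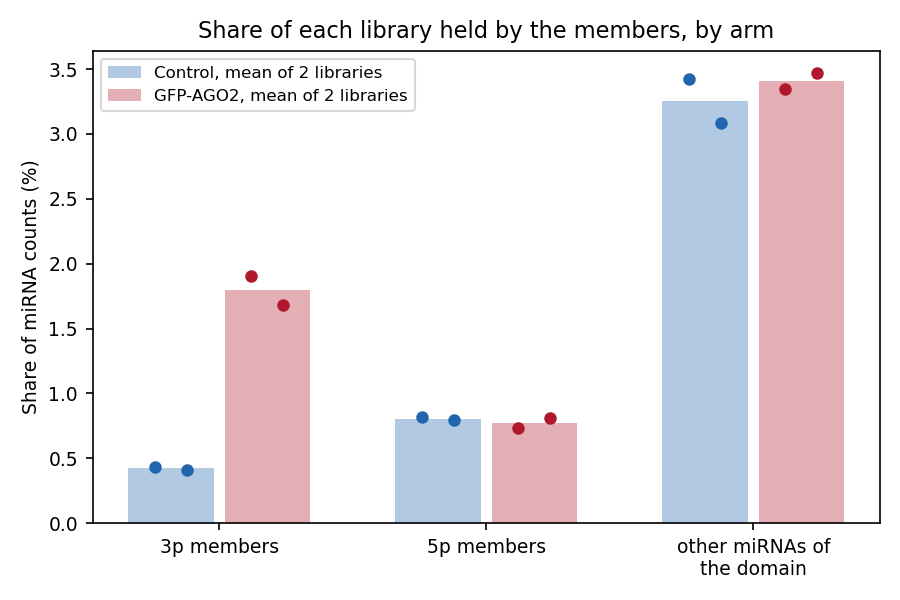
Percent of each library's miRNA counts (vertical axis) held by the 3p and the 5p members of the cluster and by the other miRNAs of the Dlk1-Dio3 domain, with bars for group means and 1 point for each of the 4 libraries. The 3p members sit at 0.411% to 0.435% in Control and 1.68% to 1.91% in GFP-AGO2, while the 5p members and the rest of the domain overlap between the groups.

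Member by member, 18 of the 43 tested miRNAs rose, 3 fell and the other 22 missed the threshold (edgeR's quasi-likelihood test, adjusted p under 0.05 over all 457 tested names). Of all tested names 17.3% rose and 17.1% fell, against 41.9% and 6.98% of the members. The median log2 fold change of the members was 1.08, with a range of -1.01 to 3.25, against -0.01 over all tested names. The groups did not overlap for 32 members that were higher and 6 that were lower in GFP-AGO2, against 36.8% and 35.2% of all tested names. None of the 3 falls was called in every fit, as given below. Without Control replicate 1 or 3 the median of the members was 1.04 and 1.47, against 0.06 and 0.02 over all tested names. Of the tested members 9 passed the low-count filter only through the GFP-AGO2 libraries, where 8 were higher without overlap and miR-487b-5p overlapped with Control. The 34 that passed on the Control libraries are therefore the fairer count. Of these 16 rose and 3 fell, with a median of 0.99, where 18.1% and 19.9% of the 392 names that passed in the same way rose and fell, with a median of -0.13. DESeq2 called 17 members higher and 3 lower, where it called 16.6% and 18.6% of all names. With no count filter, 24 members were called higher and 0 lower by edgeR, against 10.7% and 7.59% of 1106 names.

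The members were then split by arm, after their values had been seen. Among the 24 tested 3p arms, 14 were called higher (58.3%) and 0 lower, with a median log2 fold change of 1.69. Every one of the 24 was higher in each GFP-AGO2 library than in each Control library, the smallest log2 fold change being 0.48, for miR-668-3p. It stood at 321 and 291 CPM (counts scaled to library size with TMM factors) in Control and 409 and 447 in GFP-AGO2. Of the 17 that passed the filter on the Control libraries 13 were called higher, and the groups did not overlap in any. Of the 186 3p names that passed in that way 22.0% were called higher and 16.7% lower, and 39.8% were separated upward. Over the 228 tested 3p names 21.1% were called higher and 13.6% lower, and the groups were separated upward in 43.4% and downward in 29.8%. Over the 204 of them outside the cluster these values were 16.7%, 15.2%, 36.8% and 33.3%. Among the 19 tested 5p arms, 4 were called higher and 3 lower, with a median of 0.11. Their groups were separated upward in 8 and downward in 6. Over the 195 tested 5p names 15.4% were called higher and 15.9% lower, and 32.8% and 36.9% were separated upward and downward.

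The abundant 3p arms carried most of the difference. MiR-543-3p, which is known to limit the adhesion protein N-cadherin in developing neurons, stood at 1251 and 1222 CPM in Control and 5415 and 4630.5 in GFP-AGO2. It rose 4.06-fold (log2 fold change 2.02, SE 0.15, adjusted p = 0.00249 by edgeR). MiR-323-3p stood at 364 and 307 CPM in Control and 2622 and 2269 in GFP-AGO2, and rose by 2.86 on the log2 scale (SE 0.18). It moved from rank 8 and 9 among the members in the Control libraries to rank 2 and 4. MiR-485-3p had 777 and 756 CPM in Control and 2488 and 2338 in GFP-AGO2. It rose 3.15-fold (log2 1.65, SE 0.14). In all of these the groups were far apart, and each GFP-AGO2 library was close to the other.

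MiR-410-3p, at the far end of the cluster in an exon of Mirg, has been studied as a regulator of neurogenesis in the adult subventricular zone, the source of newborn bulb neurons. It had 87.3 and 89.1 CPM in Control and 824 and 657 in GFP-AGO2, and rose by 3.07 on the log2 scale (SE 0.20). MiR-495-3p had 219 and 282 CPM in Control and 1767 and 1205 in GFP-AGO2 (log2 change 2.57, SE 0.26). MiR-495-3p and miR-543-3p differ at 4 of 22 positions, and the seeds shown above are distinct. MiR-487b-3p had 248 and 238 CPM in Control and 953 and 857 in GFP-AGO2 (1.90, SE 0.15). MiR-409-3p, known to repress Lmo4 in corticospinal neurons, rose less, from 637 and 669 CPM to 1440.4 and 1209 (1.02, SE 0.16). These groups were clear of each other in every library, but the call for miR-409-3p was lost without Control replicate 1 (adjusted p = 0.0581 by edgeR) and without Control replicate 3 (0.0576).

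**Figure D2:**
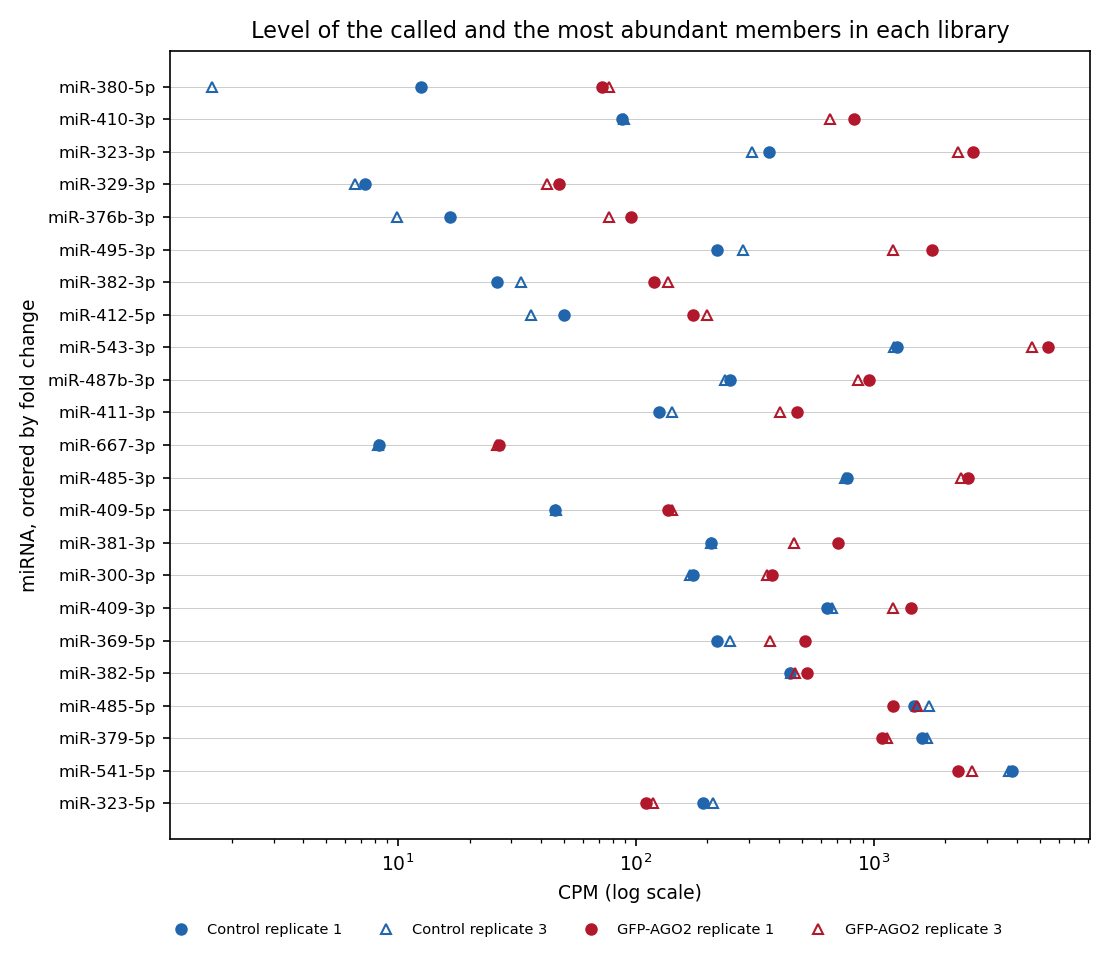
CPM on a log axis (horizontal) of the 21 called members and the remaining members among the 10 most abundant, with 1 symbol for each of the 4 libraries and the rows ordered by fold change. MiR-380-5p is at the top, where its Control libraries lie at 12.5 and 1.65 CPM, and miR-323-5p is at the bottom, with both GFP-AGO2 libraries below both Control libraries.

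The miRNAs best known in dendrites are miR-134-5p, miR-329-3p and miR-381-3p. MiR-134-5p, which holds back translation of the actin regulator Limk1 and limits spine size, stood at 346 and 371 CPM in Control and 386 and 388 in GFP-AGO2 (log2 change 0.11, adjusted p = 0.605 by edgeR). MiR-329-3p and miR-381-3p, which act with miR-134 in activity-dependent dendrite growth, were higher in every GFP-AGO2 library. MiR-329-3p had only 7.28 and 6.60 CPM in Control and 47.8 and 42.2 in GFP-AGO2 (2.68, SE 0.39). It entered the test only through the GFP-AGO2 libraries, where it was high, so its call is given as a description. MiR-381-3p had 208 and 206 CPM in Control and 710.4 and 463 in GFP-AGO2 (1.50, SE 0.25). Its 2 GFP-AGO2 libraries were far apart, and the call was lost when either Control library was left out (adjusted p = 0.0535 without replicate 1, 0.0573 without replicate 3). MiR-369-3p, like miR-543 a regulator of N-cadherin, did not pass the test (1.07, adjusted p = 0.195).

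The miR-376 hairpins are known for A-to-I editing of their mature strands in brain, and the sources used here do not say how edited reads, which carry a mismatch, were aligned. MiR-376b-3p rose from 16.6 and 9.90 CPM to 95.2 and 77.0 (log2 fold change 2.65, SE 0.37). MiR-376c-3p had 0 and 6.60 CPM in Control and 14.5 and 18.6 in GFP-AGO2 and did not pass (adjusted p = 0.138 by edgeR). MiR-376a-3p differs from miR-376b-3p at 3 of 21 positions, and its fitted change of 1.06 was not called either.

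The remaining 3p rises were miR-382-3p, miR-411-3p, miR-667-3p and miR-300-3p. MiR-382-3p went from 26.0 and 33.0 CPM to 119.8 and 136 (log2 fold change 2.13, SE 0.26). MiR-411-3p, the sole called member with a seed shared inside the cluster, went from 125 and 142 CPM to 477 and 406 (1.73, SE 0.18). Its seed partner miR-379-3p differs at 2 of 22 positions and had 7.28 and 6.60 CPM in Control and 20.9 and 14.7 in GFP-AGO2, which did not pass (1.35, adjusted p = 0.102 by edgeR). MiR-300-3p, which differs from miR-381-3p at 3 of 22 positions, rose from 174 and 168 CPM to 374 and 357 (1.09, SE 0.16). MiR-667-3p, at 8.32 and 8.25 CPM in Control and 26.6 and 26.0 in GFP-AGO2, was the weakest of them. Its call (adjusted p = 0.0333) was lost without any one of the 4 libraries, where the adjusted p lay between 0.0769 and 0.109, and with DESeq2 (0.12).

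Among the 5p arms 4 rose. MiR-380-5p, known as a repressor of p53 in neuroblastoma, entered the test only through the GFP-AGO2 libraries, where it was high, so its call too is a description. It went from 12.5 and 1.65 CPM (12 and 1 counts) to 72.4 and 77.5 CPM (log2 fold change 3.25, SE 0.65, adjusted p = 0.0151 by edgeR). Its size rests on few Control counts: without Control replicate 1 it was 5.50 and without Control replicate 3 it was 2.54. MiR-412-5p rose from 49.9 and 36.3 CPM to 174 and 200.2 (2.10, SE 0.25). MiR-409-5p rose from 45.7 and 46.2 CPM to 137 and 142 (1.60, SE 0.21). MiR-369-5p rose from 220.4 and 249 CPM to 514 and 367 (0.91, SE 0.22). The last call was lost without Control replicate 1, Control replicate 3 or GFP-AGO2 replicate 1 (adjusted p = 0.125, 0.0946 and 0.0777). MiR-409, miR-412 and miR-369 are neighbours within the last kilobase or so before miR-410.

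The 3 falls were all of 5p arms, and they were smaller than the rises. MiR-541-5p, in an intron of Mirg, had 3829.5 and 3704 CPM in Control and 2267 and 2596 in GFP-AGO2. It fell by 0.63 on the log2 scale (SE 0.14, adjusted p = 0.0207 by edgeR). MiR-379-5p, the first name of the cluster, had 1594 and 1676 CPM in Control and 1090.4 and 1138 in GFP-AGO2, and fell by 0.55 (SE 0.13). MiR-323-5p, from the same hairpin as the rising miR-323-3p, had 191 and 211 CPM in Control and 110.0 and 118 in GFP-AGO2, and fell by 0.82 (SE 0.18). None of these calls held in every fit. Without Control replicate 1 or Control replicate 3 the adjusted p was 0.169 and 0.0994 for miR-541-5p, 0.152 and 0.13 for miR-379-5p, and 0.0535 and 0.059 for miR-323-5p, and the last was also lost without GFP-AGO2 replicate 1 (0.0704).

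The scaling between libraries bears on these falls. With library totals alone, which raise the median of all tested names by 0.22 on the log2 scale, the changes of miR-541-5p, miR-379-5p and miR-323-5p were -0.41, -0.34 and -0.60 and none was called. Several abundant 5p arms stayed near their Control level. MiR-485-5p had 1478 and 1714 CPM in Control and 1214 and 1518 in GFP-AGO2 (-0.22, adjusted p = 0.372 by edgeR), and miR-382-5p had 444 and 449 against 524 and 466 (0.15, adjusted p = 0.496). The first pair of groups overlapped and the second did not. MiR-411-5p, at 151 and 170.0 CPM in Control and 276 and 223 in GFP-AGO2, narrowly missed the threshold (0.64, adjusted p = 0.0549).

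For 15 hairpins both arms were tested, which allowed the arms of a hairpin to be compared in the same libraries. For 7 of the 15, among them miR-329 and miR-379, an arm passed the low-count filter only through the GFP-AGO2 libraries, which favours a rise of that arm. In 12 of the 15 (80.0%) the 3p arm had the higher log2 fold change, with a median difference between the arms of 1.90. Among the 94 hairpins elsewhere the 3p arm was the higher in 48.9%, with a median difference of -0.04. A test of the difference between arms (edgeR's exon-usage test, with the arms of a hairpin in place of exons, chosen after the data were seen) called 8 of the 15 for the 3p arm and 0 for the 5p arm, and 5 for the 3p arm without any one of the 4 libraries. Over all 109 hairpins it called 17.4% for the 3p arm and 8.26% for the 5p arm, and among the 94 elsewhere 11.7% and 9.57%. In the 8 hairpins of the cluster whose arms both passed on the Control libraries, the 3p arm had the higher log2 fold change in 7, and 6 were called for the 3p arm and 0 for the 5p arm. Over the 87 hairpins that passed in the same way 18.4% and 10.3% were called for the 3p and the 5p arm. Among the 79 of them elsewhere the 3p arm was the higher in 51.9%.

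The hairpins called were miR-323 (difference 3.68), miR-376b (3.67), miR-329 (3.36), miR-667 (2.24), miR-382 (1.98), miR-379 (1.90), miR-485 (1.88) and miR-411 (1.09). The strongest was miR-323, with an adjusted p of 9.09e-05 in edgeR, where the 3p arm rose and the 5p arm fell. The calls for miR-379, miR-411 and miR-667 were lost without any one of the 4 libraries, with adjusted p from 0.055 to 0.137, 0.0915 to 0.118 and 0.0639 to 0.176. The hairpins miR-409, miR-412 and miR-380 went the other way, by -0.58, -1.02 and -2.05, and were not called. Without Control replicate 1, miR-380 was called for its 5p arm (-4.77).

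**Figure D3:**
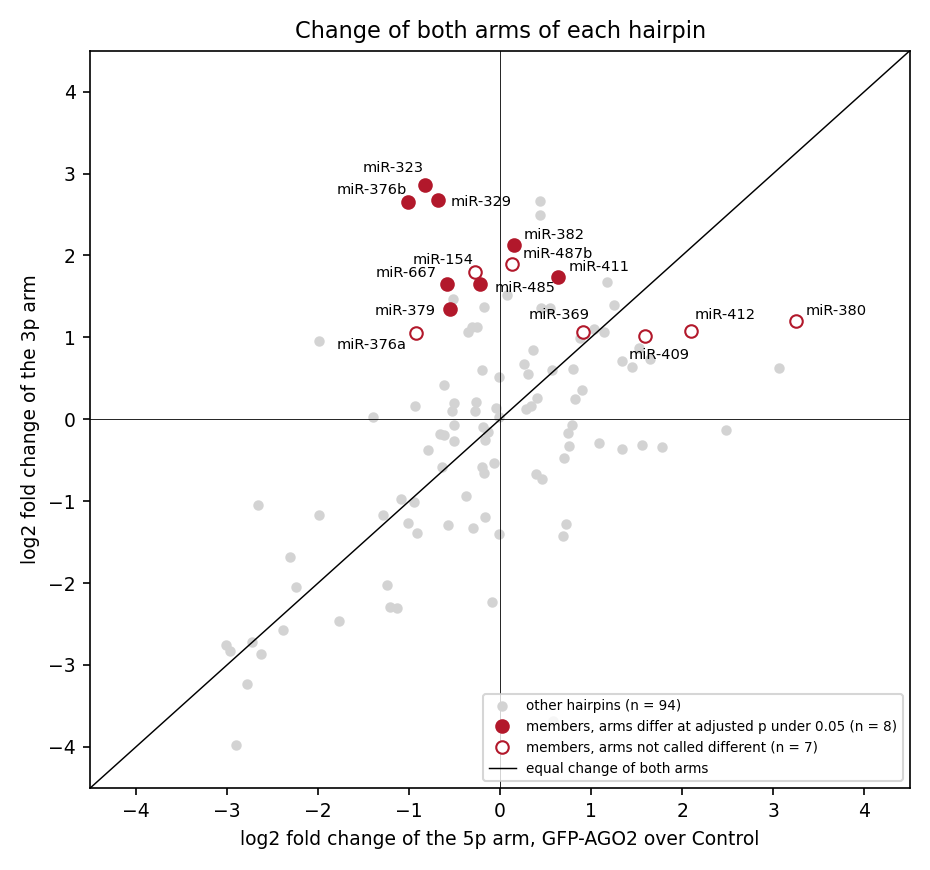
Log2 fold change of the 3p arm (vertical) against that of the 5p arm (horizontal), GFP-AGO2 over Control, for the 15 hairpins of the cluster in red and the 94 others in grey. On the diagonal both arms change equally; 12 hairpins of the cluster lie above it, and the 8 whose arms were called different are filled.

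The share of a hairpin's counts that the 3p arm takes shows the same comparison without scaling. For miR-323 the 3p arm took 65.5% and 59.2% of the hairpin's counts in Control and 95.97% and 95.07% in GFP-AGO2, and the exact 95% intervals reached 69.6% at most in Control and 94.4% at least in GFP-AGO2. For miR-485 the majority arm differed between groups, with 34.4% and 30.6% from the 3p arm in Control and 67.2% and 60.6% in GFP-AGO2. For miR-411 it was 45.3% and 45.5% against 63.4% and 64.5%. These hairpins had both arms in abundance, and the groups were far apart.

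In other hairpins 1 arm dominated throughout. The 3p arm of miR-382 took 5.53% and 6.85% in Control and 18.6% and 22.7% in GFP-AGO2, and that of miR-379 0.455% and 0.393% against 1.88% and 1.28%. For miR-379 the exact 95% intervals (Clopper-Pearson, counting error only) of Control replicate 3, 0.107% to 1.002%, and GFP-AGO2 replicate 3, 0.863% to 1.82%, overlapped. MiR-409 went the opposite way, from 93.3% and 93.5% to 91.3% and 89.5%. Another set of 15 hairpins of the cluster held at least 100 counts in each library, and not all of them had both arms tested. Among these the 3p share was above Control in both GFP-AGO2 libraries for 7, below for 3 and overlapping for 5. Over all 120 hairpins with such counts it was above for 30.8% and below for 20.8%. Of the 5, miR-495, miR-381 and miR-668 had no 5p count in any library. Of the 3, miR-543 and miR-134 rested on at most 7 counts of the minor arm in a library.

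Position along the locus did not order the changes. Over the 43 tested members, which share the same 4 libraries, the distance from miR-379-5p and the log2 fold change had a Pearson correlation of 0.0049 and a Spearman correlation of 0.013. Inside annotated Mirg 7 of 17 tested members were called higher and 1 lower (median 1.07). Upstream of it 11 of 26 were called higher and 2 lower (median 1.14). Over all tested names 17.3% were called higher and 17.1% lower. Both parts include members that passed the low-count filter only through the GFP-AGO2 libraries, such as miR-377-3p inside Mirg and miR-380-5p upstream. Rises stood at both ends: miR-411-3p lies at 109710225 to 109710246, miR-323-3p at 109712558 to 109712578, miR-543-3p at 109717304 to 109717325, miR-485-3p at 109734946 to 109734967 in an exon of Mirg and miR-410-3p at 109743764 to 109743784.

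**Figure D4:**
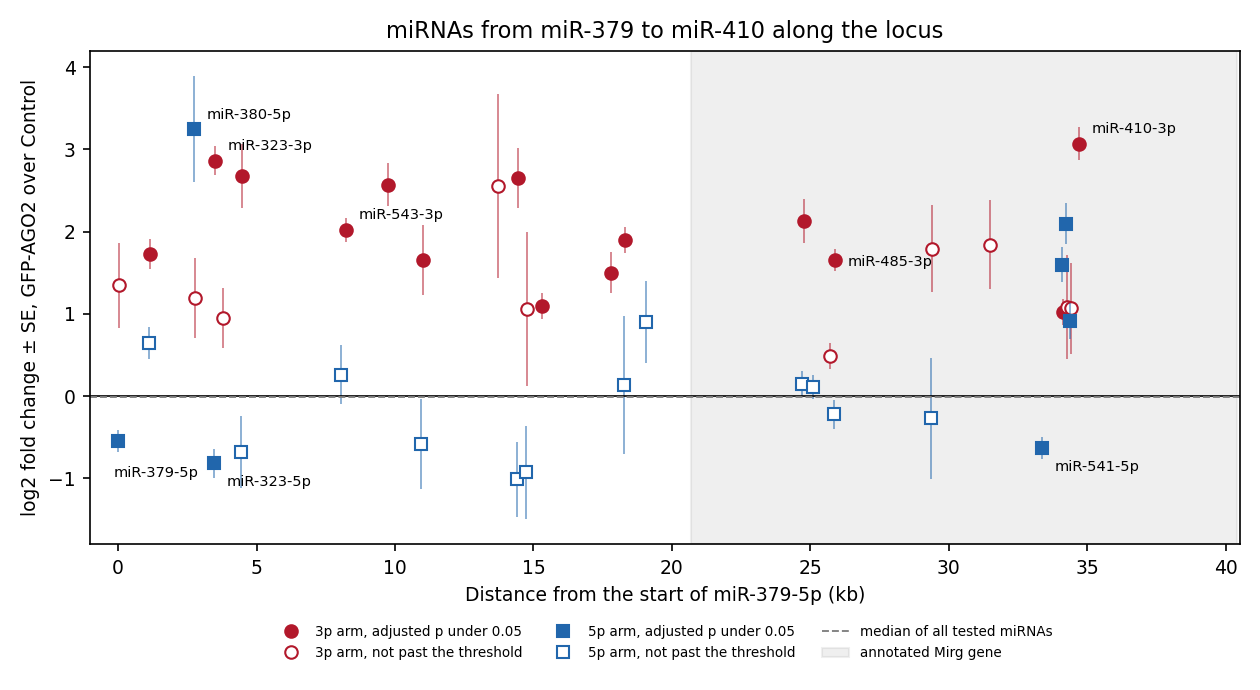
Log2 fold change of the 43 tested members, GFP-AGO2 over Control, with its SE as a bar, against distance from the start of miR-379-5p in kb; circles are 3p arms, squares are 5p arms, filled symbols passed the test and the shaded stretch is annotated Mirg. All 24 tested 3p arms lie above 0, from 0.48 upward, and the called falls are the 5p arms miR-379-5p, miR-323-5p and miR-541-5p. Of the 24, 17 passed the low-count filter on the Control libraries. The rest passed only through the GFP-AGO2 libraries, which favours a rise.

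Among the 40 tested members with a RefSeq sequence there were 39 distinct seeds, and the single shared one, AUGUAAC, was that of miR-379-3p and miR-411-3p shown above. The median GC content was 45.5% for the 17 rising members with a sequence, 46.4% for the 20 not called, and 50.0% for 365 tested names outside the cluster. Across the 40 members GC content and log2 fold change had a Pearson correlation of -0.33, against -0.08 over the names outside. The arms differed in GC content too, with a median of 44.2% for the 22 3p members and 47.7% for the 18 5p members. The correlation was not split by arm. Of the 40 members 17 began with A and 16 with U, while outside 81 of 365 began with A and 158 with U.

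The other miRNAs of the Dlk1-Dio3 domain, which lie before miR-379, were counted in the same way. The 39 names there held 3.42% and 3.08% of the counts in Control and 3.35% and 3.47% in GFP-AGO2 (exact permutation p = 0.667). Among 20 tested names there, 3 were called higher (15.0%) and 4 lower (20.0%), near the 17.3% and 17.1% of all tested names. Their median log2 fold change was -0.07, with a range of -6.67 to 2.48 that extended further down than that of the cluster. No test compared these names with the cluster. The most abundant, miR-127-3p, which lies antisense to the imprinted gene Rtl1, had 25230 and 24614 CPM in Control and 16831 and 16510 in GFP-AGO2 (-0.58, SE 0.11). MiR-433-3p, also antisense to Rtl1, rose from 4547 and 4243 CPM to 7099 and 7600 (0.74, SE 0.13).

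The cluster's share of all Dlk1-Dio3 counts was 26.8% and 28.1% in Control and 44.1% and 41.8% in GFP-AGO2 (exact permutation p = 0.33, the smallest possible). With miR-127-3p left out of the domain the shares were 55.3% and 58.1% against 62.7% and 60.0%, and the difference shrank from 15.49 to 4.71 percentage points.

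Markers of other cells moved in the same libraries. On the epithelial and sensory list, drawn from the miR-200 and miR-183 families, 8 of 8 names fell (median log2 fold change -2.83), and they took 23.4% and 23.0% of the counts in Control and 2.56% and 4.998% in GFP-AGO2. With all arms of these hairpins left out of the total, a later choice, the cluster's share was 1.64% and 1.58% in Control and 2.71% and 2.62% in GFP-AGO2, a ratio of 1.66. The 5p members were then at 1.07% and 1.04% in Control and 0.751% and 0.853% in GFP-AGO2. On that total the 5p shares were lower in both GFP-AGO2 libraries than in both Control libraries. Markers of vessels, blood and immune cells took 0.489% and 0.357% in Control and 0.0359% and 0.169% in GFP-AGO2. Of their 15 names 12 were in the table and 5 were tested, of which 3 fell. MiR-126a-3p, miR-126a-5p and miR-142-3p were listed at 0, which is not read as absence, and the list's percent does not cover them.

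The neuronal list was near its Control level, with 12 of 13 names tested, 2 higher, the arms of miR-9, and 1 lower, miR-138-5p. Its median log2 fold change was 0.00, and it took 3.33% and 3.88% of the counts in Control and 4.23% and 3.80% in GFP-AGO2. MiR-129-2-3p was listed at 0, which is not read as absence either. The 4 oligodendrocyte names were all at 0, and all overlap other names, so nothing is read from them. The part of these cell types in the cluster's changes was not tested.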

How the data were processed

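The values were whole-number counts per mature miRNA name as the authors deposited them, counted by featureCounts (v1.4.6-p1, primary alignments, no strand option), per the file headers. Cutadapt, STAR and mm10 are named in the submitters' processing notes. Columns were tied to samples by their titles. Members and lists were chosen with earlier results of these data known. Total counts per library were 673916 to 2809758. Replicates were not copies of each other (chi-square 4824 on 478 degrees of freedom in Control, 48060 on 576 in GFP-AGO2).

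The test over all names was the two-sided quasi-likelihood F test of edgeR (4.0.16, under R 4.3.3), with TMM factors, filterByExpr at a minimum count of 10 (457 names left, holding at least 99.9% of each library's counts) and Benjamini-Hochberg adjustment over the 457. The script was tested on simulated data. Arm differences came from diffSpliceDGE in edgeR, adjusted over 109 hairpins. Shares were compared by exact permutation over the 4 libraries. They carry counting error only within a library, since PCR copies are counted as reads. Gene annotation was GENCODE M21 and sequences were from RefSeq. Of the 77 names 73 matched a RefSeq sequence, all at the same coordinates. Named members were those called, the 10 most abundant and the partner arms of called members; other names were added after their values were seen.

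Alternatives were RLE factors, library totals alone, no count filter, a filter at 50 counts, DESeq2 1.42.0, a replicate block, names with 1 position only, and leaving out each library, where the fit has 1 residual degree of freedom.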

Additional observations from a re-analysis of the deposited data

How the results depend on the processing

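The number of members that rose was 18 of 43 tested and lay between 17 and 24 under the alternatives that kept all 4 libraries. The number tested varied: it was 17 of 27 with the filter at 50 counts and 24 of 64 with no filter. Over all names 79 of 457 rose in the main fit, 70 of 287 with the filter at 50 counts and 118 of 1106 with no filter. With each library left out in turn, the members' median log2 fold change lay between 0.94 and 1.47. That of all tested names lay between -0.03 and 0.06. In all fits run, 14 of the 18 rises and 0 of the 3 falls were called. The rises called in every fit include miR-329-3p and miR-380-5p, which entered the test only through the GFP-AGO2 libraries and whose calls are description. The number of falls was 0 with library totals alone and 0 with no count filter. Library totals and no filter shifted the median of the 457 names of the main fit by 0.22 and 0.24 (log2). The split of all calls was then 100 higher and 66 lower of 457 names, and 118 and 84 of 1106. In the main fit 8 of 15 hairpins were called for the 3p arm, where 17.4% of all 109 hairpins were. The number was 5 of 27 with no filter and 5 of 7 with the filter at 50 counts. At 50 counts miR-329, miR-379 and miR-667 were not tested. Fewer hairpins were called in each fit without a library, as given above. MiR-487b-5p (0.13) ranged from -0.498 (without Control replicate 1) to 1.06 (without Control replicate 3) and was -0.453 without GFP-AGO2 replicate 1, and miR-485-5p turned to 0.0161 with no filter; neither was called. The difference in the share of the 5p members (-0.035 points) turned to 0.052 with the most abundant of them left out, and lay between -0.074 and 0.0039 without each library. The labels do not say whether the replicate numbers pair the libraries. The deviations of Control and GFP-AGO2 replicate 1 had r = -0.061 over 457 names, which cannot settle it with 2 libraries per group. With the replicate numbers as a block 17 members rose, 3 fell and 7 hairpins were called. Of all 457 names 79 rose and 85 fell in that fit. The cause of these differences was not tested. Depth limits the names with a mean under 10 CPM in Control, such as miR-329-3p, miR-667-3p and miR-380-5p.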
